A study of Mus musculus with 15 samples.

Results

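Neurexins are presynaptic adhesion molecules whose binding partners depend on alternative splicing, and the proteins that decide this splicing are RNA-binding factors with neuron-restricted or neuron-enriched members. The 10 genes described here encode such factors: Khdrbs1, Khdrbs2, Khdrbs3, Rbfox1, Rbfox2, Rbfox3, Nova1, Nova2, Ptbp2 and Srrm4. They were taken by gene symbol from the deposited table, in which each matched 1 of 43629 genes, and their levels were described across 15 single interneurons. The cells came from the CA1 area of organotypic hippocampal slice cultures of C57BL6 mice aged 6 to 7 days, in which TdTomato marked 1 interneuron type per mouse line through a Cre driver at Slc17a8 (VGT3+), Pvalb (Pv+) or Sst (Sst+). There were 5 cells of each type, and the cytosol of each was drawn into a patch pipette and sequenced as 1 library after full-length cDNA amplification. No animal or culture is named for a cell, so each type counted as 1 sample, type and mouse line cannot be told apart, errors are SDs between cells, and no test between types was made. VGT3+ cells 1 to 3 carry the library prefix G556, and VGT3+ cells 4 and 5 the prefix G709, as do all Pv+ and Sst+ cells.

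The Khdrbs genes encode STAR-family RNA-binding proteins (Khdrbs1 is also called Sam68) that recognise A- and U-rich RNA and are known in mouse brain to promote skipping of the exon at alternatively spliced segment AS4 of neurexin transcripts. Rbfox proteins bind the element UGCAUG in introns and exons, and the protein of Rbfox3 is the neuronal marker NeuN. Nova proteins bind clusters of YCAY, where Y is C or U. Ptbp2 is the neuronal polypyrimidine-tract binding protein, which follows its relative Ptbp1 during neuronal differentiation, and Srrm4 encodes an activator of neural microexons. These proteins act mostly in the nucleus, whereas the libraries hold cytosolic RNA, so the values below are levels of the regulators' messenger RNA.

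In GRCm38 coordinates, Khdrbs1 lies at chr4:129703164-129742303, Khdrbs2 at chr1:32172714-32658568 and Khdrbs3 at chr15:68928420-69101211. Rbfox1 spans chr16:5885355-7411526, Rbfox2 chr15:77078990-77307004 and Rbfox3 chr11:118489762-118911597. Nova1 lies at chr12:46694517-46818929, Nova2 at chr7:18925888-18965319, Ptbp2 at chr3:119718742-119784466 and Srrm4 at chr5:116439275-116591817. The values are totals over the exons of each gene and do not separate its isoforms.

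The labels were borne out by the genes behind them. Slc17a8 ranged from 106 to 354 TPM in VGT3+ cells and did not exceed 0.0516 TPM in other cells. Pvalb ranged from 3136 to 7383 TPM in Pv+ cells, against 55.1 TPM or less in the others, and for Sst the ranges were 1804 to 4539 TPM in its own type and up to 0.458 TPM outside it. TPM is a cell's length-corrected reads scaled to a sum of 1000000, so levels of different genes can be set side by side. The reads counted on genes were estimated from TPM and annotated exon lengths at 13.2 to 32.2 (median 16.9) in units of 1000000 reads per cell. Microglial RNA was present too, with the 11 microglia markers adding up to 133 to 24356 TPM per VGT3+ cell, 4048 to 15781 per Pv+ cell and 0.433 to 5155 per Sst+ cell. Tmem119 was listed at 0 in all Sst+ cells and no other microglia marker was at 0 throughout a type. The 6 glutamatergic markers summed to at most 67.9 TPM and the 5 endothelial markers to at most 5.11 TPM in any cell.

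Because the regulators act on neurexin splicing, the AS4 exon of Nrxn3 is shown first. It was found in GENCODE as a 90-base coding exon that 5 transcripts hold and 2 skip between the same neighbours, at chr12:90199147-90199236 in GRCm38 on the plus strand. Capitals mark TAAA, one of the short A- and U-rich forms that Khdrbs proteins can bind.
Nrxn3 AS4 exon: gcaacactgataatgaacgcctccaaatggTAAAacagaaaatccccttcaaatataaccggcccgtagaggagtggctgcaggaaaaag
On the sense strand, which reads as the RNA does, TAAA was found in 1 place. There, 19.7% of the 1479 coding exons of 90 bases held it. On both strands together the count stayed at 1, with 32.8% of exons holding it. TTAA had 0 matches on both strands (17.2% of exons). So had TGCATG, the DNA form of the Rbfox element (1.6% of exons on the sense strand, 3.8% on both). The Nova element was counted as TCAT or TCAC and, where it starts with C, as CCAT or else as CCAC. It had 0 matches on the sense strand, where 75.3% of exons held at least 1, and 3 on both strands, where 96.9% did. TAAA and TTAA can overlap. The flanking introns, where such elements also lie, were not searched.

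By mean TPM over all cells, Ptbp2 was the most abundant of the regulators. In Sst+ cells its median was below that of Rbfox1 (95.4 against 133 TPM). Ptbp2 was the only regulator above 0 in all 15 cells. So were 1695 of the 12825 genes tested, those averaging 1 TPM or more over all cells. In VGT3+ cells 1 to 5 the level of Ptbp2 was 119, 48.2, 0.692, 114 and 105 TPM. In Pv+ cells 1 to 5 it was at 64.6, 30.2, 7.22, 53.5 and 51.9 TPM. In Sst+ cells 1 to 5 it was at 247, 145, 95.4, 90.5 and 70.2 TPM. Every Sst+ cell thus lay above every Pv+ cell, while VGT3+ cells overlapped both types. The mean was 77.4 ± 51.4 TPM for VGT3+, 41.5 ± 22.8 for Pv+ and 130 ± 71.1 for Sst+ cells (SD, n = 5 cells each). On the scale of mean log2(TPM + 1), which understates changes at low levels, the difference of Pv+ from Sst+ cells was -1.77. It exceeded the larger of the SDs of the pair of types, 1.22, and stayed between -2.01 and -1.26 with each cell left out in turn. With medians over cells it was -0.87, under the 1 log2 unit used here as the mark of a difference. Of all 12825 genes, 9.34% were at least as far below in Pv+ cells. The difference of VGT3+ from Sst+ cells was -1.51, a value that rested on VGT3+ cell 3 (-0.35 without it, -0.09 within prefix G709) and lay within the larger SD of 2.63. VGT3+ cell 3 also had the fewest genes above 0, 5463. The difference in mean log2(TPM + 1) of VGT3+ from Pv+ cells was 0.27, and -0.15 after division by size factors. It was 1.68 within prefix G709 and 1.01 with medians over cells. Ptbp1, which the neuronal form replaces in development, was listed at 0 in 13 of the 15 cells and reached 0.176 TPM at most.

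Rbfox1 had the widest contrast between types. It was listed at 0 in VGT3+ cells 1, 3, 4 and 5 and was at 51.5 TPM in VGT3+ cell 2. In Pv+ cells 1 to 5 it was at 0.930, 21.3, 57.8, 98.8 and 18.1 TPM. In Sst+ cells 1 to 5 it was at 133, 36.7, 150, 97.5 and 182 TPM. Thus Sst+ cells held high levels throughout, Pv+ cells spanned a wide range that overlapped them, and VGT3+ cells lacked reads in all but 1 cell. Where Rbfox1 was listed at 0, the level of 3 reads would have been 0.0711 to 0.1145 TPM, which covers counting error only and not RNA lost before amplification. The difference in mean log2(TPM + 1) of VGT3+ from Sst+ cells was -5.59, past the larger SD of 2.56, and VGT3+ cells were lower in 24 of 25 pairs of cells. Of the tested genes, 0.195% (25) were as far below. Within prefix G709 the difference was -6.74, and it lay between -6.74 and -5.31 with each cell left out. Against Pv+ cells the difference was -3.30 (larger SD 2.56, lower in 22 of 25 pairs, -4.44 within prefix G709), which 1.95% of genes reached. From Pv+ to Sst+ cells it was -2.29 (larger SD 2.19, Pv+ lower in 22 of 25 pairs, a difference reached by 5.12% of genes), and -1.42 without Pv+ cell 1. The microglia markers summed to 24356, 823, 5795, 20576 and 133 TPM over VGT3+ cells 1 to 5, to 4350, 4877, 15781, 4048 and 4360 TPM over Pv+ cells 1 to 5, and to 0.433, 177, 313, 5155 and 1650 TPM over Sst+ cells 1 to 5. They were thus lower in most Sst+ cells than in the Pv+ cells. Among VGT3+ cells the sum was lowest in cell 5, with Rbfox1 listed at 0, and next lowest in cell 2, with Rbfox1 at 51.5 TPM. The highest sums of Pv+ and of Sst+ cells, in Pv+ cell 3 and Sst+ cell 4, stood beside Rbfox1 at 57.8 and 97.5 TPM. Over the 15 cells the r with this sum on log2 scales was -0.37 for Rbfox1 and -0.45 for Ptbp2, and the part of microglial RNA in either level was not tested.

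**Figure D1:**
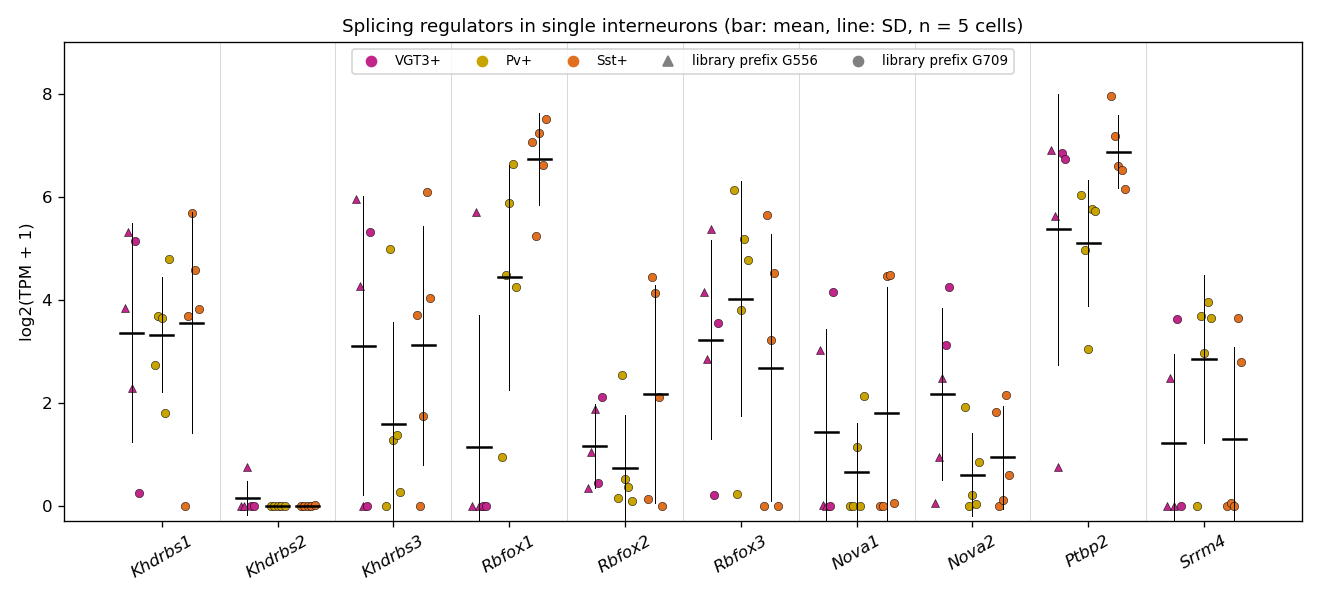
Levels of the 10 regulators, as log2(TPM + 1) on the vertical axis, in VGT3+, Pv+ and Sst+ cells (1 point per cell, bars for means, thin lines for 1 SD and cut at the lower edge, n = 5 cells; triangles for library prefix G556, circles for G709). Rbfox1 was at 0 in 4 VGT3+ cells and between 36.7 and 182 TPM in Sst+ cells, and Ptbp2 in Pv+ cells (7.22 to 64.6 TPM) all lay below all Sst+ cells (70.2 to 247 TPM).

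By mean log2(TPM + 1), Rbfox3 and Rbfox2 differed less between types than Rbfox1 did. In VGT3+ cells 1 to 5, Rbfox3 was at 16.9, 6.17, 40.8, 0.150 and 10.8 TPM. In Pv+ cells 1 to 5 its values were 69.6, 0.165, 13.0, 35.3 and 26.2 TPM. In Sst+ cells it was at 49.0, 8.36 and 22.1 TPM in cells 2 to 4 and listed at 0 in cells 1 and 5. The types overlapped, although the mean log2 value was 1.34 higher in Pv+ than in Sst+ cells, within the larger SD of 2.59. This difference was 0.67 without Sst+ cell 1 or 5, 0.81 without Pv+ cell 1, 2.29 without Pv+ cell 2 and 2.08 without Sst+ cell 2. The difference of VGT3+ from Pv+ cells was -0.79. It was -2.14 within prefix G709, -1.12 with size factors and -1.21 with medians. From Sst+ cells, VGT3+ cells differed by 0.55, and by -0.80 within prefix G709. Rbfox2, which is also expressed outside neurons, had the lowest mean log2 value of the family in Pv+ and in Sst+ cells, and in VGT3+ cells it lay beside Rbfox1 (1.16 against 1.14). It spanned 0.269 to 3.33 TPM over VGT3+ cells and 0.0709 to 4.85 TPM over Pv+ cells, and in Sst+ cells it ranged from a listed 0 to 20.8 TPM. Its difference in mean log2 from Sst+ cells was -1.43 for Pv+ and -1.001 for VGT3+ cells, both within the larger SD of 2.12. The former was -0.86 without Sst+ cell 2 and -0.93 without Sst+ cell 3. The latter was -0.43 and -0.51 without these, -0.80, -0.97 and -0.82 without VGT3+ cells 1, 2 and 4, and -1.51 and -1.54 without Sst+ cells 1 and 5.

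The family makeup followed from these levels. Rbfox1 held 79.9 ± 26.9% (SD, n = 5 cells) of the summed Rbfox TPM in Sst+ cells and was the highest of the 3 in 4 of 5. In Pv+ cells it held 55.5 ± 34.6% and was highest in 3 of 5. In VGT3+ cells Rbfox3 was highest in 3 of 5, with 61.8 ± 39.5%, and Rbfox1 held 87.7% in VGT3+ cell 2 alone. The summed Rbfox level was 107 to 182 TPM in Sst+ cells, 26.4 to 134 TPM in Pv+ cells and 0.506 to 58.8 TPM in VGT3+ cells, so VGT3+ and Sst+ cells did not overlap in this sum. Each of the 3 genes alone did overlap between these types. The Khdrbs sum (4.54 to 74.4 TPM in VGT3+, 11.8 to 90.6 TPM in Sst+ cells) overlapped between these types. So did the Nova sum (0.953 to 34.7 and 0 to 24.9 TPM). Of single tested genes, 1.51% had ranges that did not overlap between VGT3+ and Sst+ cells. The share over sums of other gene families was not computed.

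The 3 Rbfox genes are close paralogs, and their contrast holds only if reads can be assigned to each. Among coding exons of at least 60 bases and equal length, the one in which they were most alike has 93 bases. It encodes part of the RNA-recognition motif and is shown with capitals at the 26 positions where not all 3 agree. The exon lies at chr16:7292185-7292277 (plus strand) in Rbfox1, chr15:77105577-77105669 (minus) in Rbfox2 and chr11:118502842-118502934 (minus) in Rbfox3, in GRCm38.
Rbfox1 exon: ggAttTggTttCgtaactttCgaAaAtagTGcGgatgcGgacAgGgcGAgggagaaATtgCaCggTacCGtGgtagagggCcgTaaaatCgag
Rbfox2 exon: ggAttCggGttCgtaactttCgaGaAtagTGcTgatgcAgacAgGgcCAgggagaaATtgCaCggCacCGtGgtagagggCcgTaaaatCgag
Rbfox3 exon: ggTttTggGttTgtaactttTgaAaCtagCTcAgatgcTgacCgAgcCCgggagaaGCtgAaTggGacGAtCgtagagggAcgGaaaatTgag
All 3 agreed at 72.0% of positions, and the longest run that Rbfox1 shared with a paralog in this exon was 27 bases. Reads were 50 bases long, and of the 50-base words in transcripts of Rbfox1, Rbfox2 and Rbfox3, 0 occurred in any other gene. For the 10 regulators no such word was shared with another of the 10. The share of words found in any other gene was 30.8% for Nova2, 3.00% for Nova1 and at most 1.19% for the rest. All such words of Nova2 also occurred in Gm26821, a noncoding gene on the opposite strand that covers 31.7% of the Nova2 exon bases. Gm26821 was listed at 0 in all 15 cells. The library kit does not mark strand, so reads of the overlapping stretch cannot be told apart. How such reads were counted is not given, so the listed 0 does not show that Gm26821 was absent, and Nova2 may be understated. The antisense gene Srrm4os overlaps Srrm4 by 0.784% of its exon bases and was above 0 in 3 cells, at 6.29 TPM at most.

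**Figure D2:**
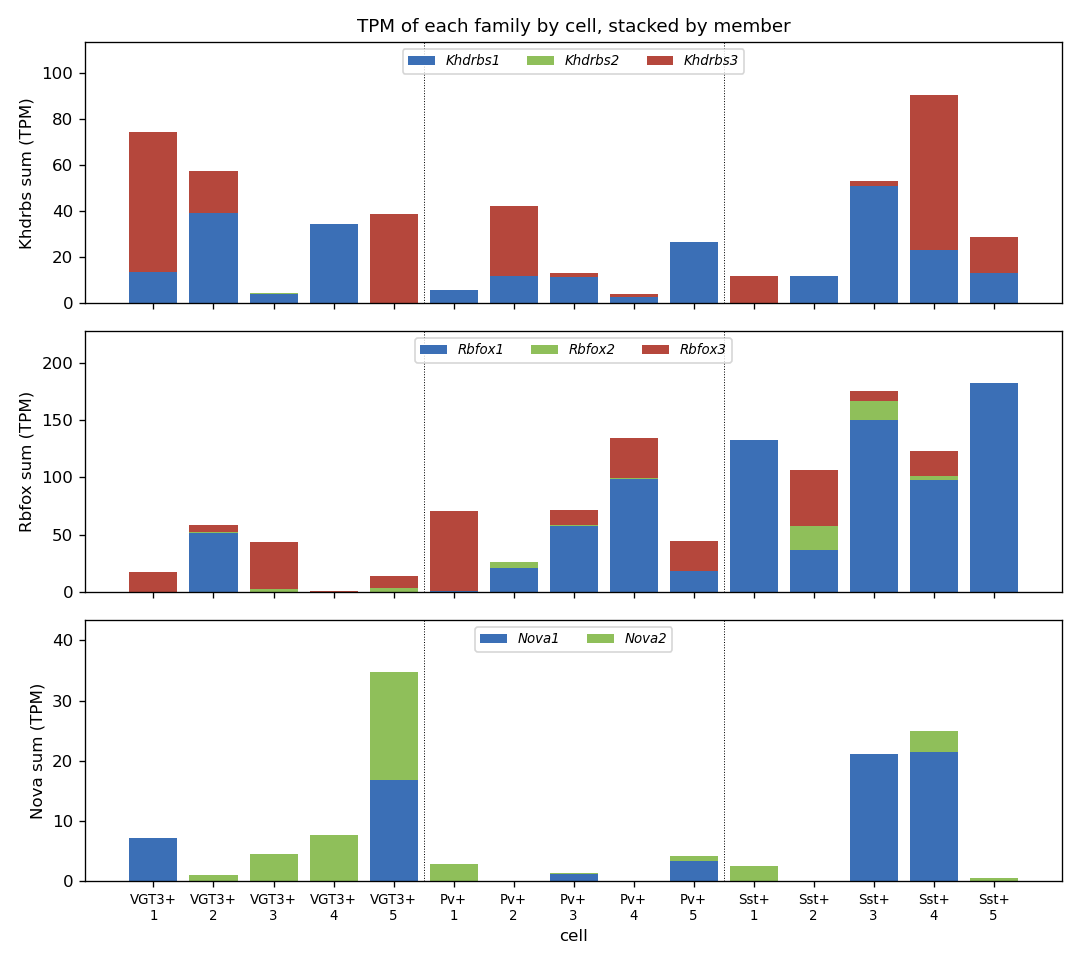
TPM of the Khdrbs, Rbfox and Nova genes in each of the 15 cells, stacked by member, with dotted lines between the types (each panel has its own vertical axis, in TPM). Rbfox1 makes up most of the Rbfox sum in 4 Sst+ cells, Khdrbs1 or Khdrbs3 leads the Khdrbs sum depending on the cell, and Khdrbs2 adds at most 0.678 TPM.

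Of the Khdrbs genes, Khdrbs1 was above 0 in all but 1 cell. In VGT3+ cells 1 to 5 its level was 13.3, 39.1, 3.86, 34.2 and 0.183 TPM, and in Pv+ cells 1 to 5 it was 5.63, 11.8, 11.5, 2.49 and 26.5 TPM. In Sst+ cells 2 to 5 it was at 11.8, 50.9, 23.1 and 13.2 TPM and it was listed at 0 in cell 1. The differences of mean log2(TPM + 1) were 0.04 between VGT3+ and Pv+, -0.19 between VGT3+ and Sst+ and -0.23 between Pv+ and Sst+ cells, all within the larger SD (up to 2.14; the sign between VGT3+ and Pv+, and between Pv+ and Sst+, turned with size factors, to -0.30 and 0.13). Khdrbs1 is expressed in many cell types, and its r with the summed microglia markers was 0.52 over the 15 cells on log2 scales, a description of cells that differ in type and depth. The part of microglial RNA in its level was not tested.

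Khdrbs3, the neuronal relative with a known role at AS4, ranged widely within each type. In VGT3+ cells 1, 2 and 5 it was at 61.0, 18.4 and 38.6 TPM, with values listed at 0 in cells 3 and 4. In Pv+ cells 2 to 5 its level was 30.6, 1.44, 1.60 and 0.207 TPM, with a listed 0 in cell 1. In Sst+ cells it was at 11.97, 2.37, 67.6 and 15.4 TPM in cells 1, 3, 4 and 5, with a listed 0 in cell 2. Each type therefore held a cell above 30 TPM beside at least 1 cell at 0. The difference in mean log2 was 1.52 between VGT3+ and Pv+ cells. Between Pv+ and Sst+ cells it was -1.53, and both were within larger SDs of 2.90 and 2.33. With medians these were 2.99 and -2.41. The former was 0.81 without VGT3+ cell 1, 0.97 without VGT3+ cell 5, 2.30 without VGT3+ cell 3 or 4 and 2.37 without Pv+ cell 2. The latter was -0.79 without Sst+ cell 4, -2.38 without Pv+ cell 2 and -2.31 without Sst+ cell 2. In the 4 cells where Khdrbs3 was listed at 0, Nrxn3 was at 336, 115, 144 and 92.2 TPM (VGT3+ cells 3 and 4, Pv+ cell 1 and Sst+ cell 2). Nrxn2, the less abundant of the 2 targets measured, did not exceed 17.2 TPM, its level in Sst+ cell 1. Khdrbs1 was above 0 in the same 4 cells, and no cell was without both. As Khdrbs1 was listed at 0 in Sst+ cell 1 alone, at most 1 cell could have been. Khdrbs2 was listed at 0 in 13 cells. It was at 0.678 TPM in VGT3+ cell 3, about 42 reads, and at 0.0118 TPM in Sst+ cell 5, about 1 read, and the level of 3 reads would have been 0.0237 to 0.0503 TPM over the cells. Khdrbs1 was the highest Khdrbs gene in 4 of 5 Pv+, 3 of 5 VGT3+ and 2 of 5 Sst+ cells, and Khdrbs3 in the others.

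Nova2 had its 3 highest values in VGT3+ cells. Its level in VGT3+ cells 1 to 5 was 0.0374, 0.941, 4.56, 7.66 and 18.0 TPM. In Pv+ cells it was at 2.81, 0.162, 0.0266 and 0.810 TPM in cells 1, 3, 4 and 5 and listed at 0 in cell 2, and in Sst+ cells it was at 2.53, 0.0821, 3.47 and 0.524 TPM in cells 1, 3, 4 and 5 and listed at 0 in cell 2. The 2 lowest VGT3+ cells overlapped both other types. In mean log2, VGT3+ cells were 1.56 above Pv+ cells (3.07 within prefix G709, higher in 21 of 25 pairs) and 1.23 above Sst+ cells (2.74 within prefix G709, 0.71 without VGT3+ cell 5, 0.99 without VGT3+ cell 4 and 0.99 without Sst+ cell 2). Both values lay within the larger SD of 1.68, and the VGT3+ cells of prefix G709 (7.66 and 18.0 TPM) lay above those of prefix G556 (0.0374 to 4.56 TPM). Nova1 was above 1 TPM in 2 cells of each type, at 7.14 and 16.7 TPM in VGT3+ cells 1 and 5, 1.22 and 3.37 TPM in Pv+ cells 3 and 5, and 21.1 and 21.4 TPM in Sst+ cells 3 and 4. It was listed at 0 in 7 cells. Its difference of -1.14 between Pv+ and Sst+ cells lay within the larger SD of 2.44. It was -0.05 with medians over cells, -0.47 without Sst+ cell 4, -0.48 without Sst+ cell 3 and -0.98 without Pv+ cell 1, 2 or 4.

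Srrm4 was found in most Pv+ cells and fewer of the others. It was at 11.9, 6.86, 14.5 and 11.6 TPM in Pv+ cells 2 to 5 and listed at 0 in Pv+ cell 1. It was at 4.59 and 11.4 TPM in VGT3+ cells 2 and 4 and listed at 0 in the other 3. In Sst+ cells it was at 11.5 and 5.89 TPM in cells 4 and 5, at 0.0424 TPM in cell 2 and listed at 0 in cells 1 and 3. The highest values of the 3 types were thus close. Srrm4 was above 0 in 4 of 5 Pv+, 2 of 5 VGT3+ and 3 of 5 Sst+ cells, and how many genes differ as much in such counts was not computed. The difference in mean log2 was -1.63 between VGT3+ and Pv+ cells (-1.04 within prefix G709, larger SD 1.72) and 1.56 between Pv+ and Sst+ cells (larger SD 1.78). With medians over cells these were -3.65 and 3.59. Each difference of means stayed past 1 with any cell left out. Its relative Srrm3 was at most 13.0 TPM and was listed at 0 in 8 cells. The r of Srrm4 with the summed microglia markers was 0.48 over the 15 cells, and the part of microglial RNA in its level was not tested.

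**Figure D3:**
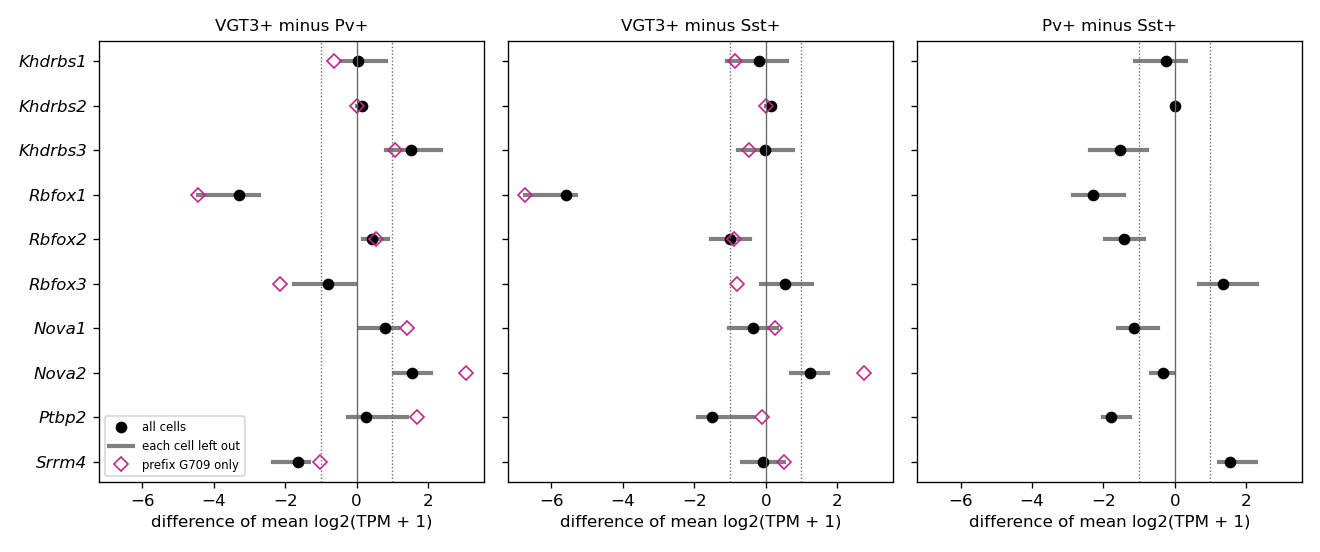
Differences of mean log2(TPM + 1) between types for each regulator (black points), with the range when each cell is left out in turn (grey bars) and the value with only VGT3+ cells of library prefix G709 (open diamonds); dotted lines mark 1 log2 unit. Rbfox1 lies at -3.30 and -5.59 in the comparisons of VGT3+ cells, and Ptbp2 at -1.77 between Pv+ and Sst+ cells.

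A difference of at least 1 in mean log2(TPM + 1) was common in these single cells. Between VGT3+ and Pv+ cells, 4 of the 10 regulators passed it, 2 higher (Khdrbs3, Nova2) and 2 lower (Rbfox1, Srrm4), beside 46.7% of all tested genes, 22.7% higher and 24.1% lower. Between VGT3+ and Sst+ cells 1 was higher (Nova2) and 3 lower (Rbfox1, Ptbp2 and, by the narrowest margin, Rbfox2), beside 47.6% of genes, 22.9% higher and 24.7% lower. Between Pv+ and Sst+ cells 2 were higher (Srrm4, Rbfox3) and 5 lower (Rbfox1, Ptbp2, Khdrbs3, Rbfox2, Nova1), beside 46.1% of genes, 22.9% higher and 23.2% lower. The ranges of the 5 cells did not overlap for 0 regulators between VGT3+ and Pv+ cells (4.66% of genes), 0 between VGT3+ and Sst+ cells (1.51%) and 1, Ptbp2, between Pv+ and Sst+ cells (5.07%). Of the 30 differences, 15 passed 1 log2 unit and 4 passed the larger SD as well: the 3 of Rbfox1 and that of Ptbp2 between Pv+ and Sst+ cells. By that measure alone 1 regulator passed between VGT3+ and Pv+ cells, 1 between VGT3+ and Sst+ cells and 2 between Pv+ and Sst+ cells, beside 17.1%, 10.7% and 17.3% of all tested genes. Khdrbs2, with a mean under 1 TPM, was not among the tested genes, and the other 9 were. The median difference over the 1709 genes detected in every cell was 0.38 between VGT3+ and Pv+, 0.06 between VGT3+ and Sst+ and -0.30 between Pv+ and Sst+ cells. Against these shifts the median over the regulators was 0.21, -0.13 and -0.74.

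By mean log2(TPM + 1), Ptbp2 ranked first in each type, although in Sst+ cells Rbfox1 had the higher median (7.06 against 6.59). By the mean, Rbfox1 came second in Pv+ and Sst+ cells and ninth in VGT3+ cells, and Khdrbs2 came last in all 3. In Sst+ cells the step from Rbfox1 to the next, Khdrbs1, was 3.18 and exceeded the larger SD. No other step between neighbours exceeded it in any type. A cell held between 4 and 9 of the 10 regulators at 1 TPM or more, and of the 150 values 40 were at 0, 25 were above 0 but under 1 TPM and 60 were at 10 TPM or more. Over 15 cells, the r of log2(TPM + 1) between 2 of them had a median of -0.01 over 45 pairs and was 0.44 at most (Khdrbs3 with Nova1). The lowest, -0.78 between Khdrbs2 and Ptbp2, rested on VGT3+ cell 3, the only cell with more than a trace of Khdrbs2 and the one with the least Ptbp2.

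Other splicing regulators were taken from a list of 30 genes, of which 27 were among the tested genes. Between Pv+ and Sst+ cells 13 of the 27 were at least 1 lower and 2 higher, beside 23.2% and 22.9% of all tested genes. The median was -0.99, where that of all tested genes was 0.00 and that of the genes detected in every cell was -0.30. Between VGT3+ and Sst+ cells 10 were lower and 2 higher (24.7% and 22.9% of all tested genes; median -0.37 against 0.06 for genes detected in every cell). Between VGT3+ and Pv+ cells 7 were higher and 1 lower (22.7% and 24.1%; median 0.08 against 0.38). Sst+ cells enter the first 2 of these and Pv+ cells the first and the last. Qk, a STAR-family relative of the Khdrbs genes that is abundant in glia, spanned 42.2 to 161 TPM over the VGT3+ cells, above every Sst+ cell (2.86 to 33.7 TPM), with Pv+ cells at 3.19 to 53.1 TPM. Of all tested genes, 1.51% had ranges that did not overlap between VGT3+ and Sst+ cells. By their medians, the microglia sum (5795 against 313 TPM) and the astrocyte sum (773 against 384 TPM) were higher in VGT3+ than in Sst+ cells. The oligodendrocyte lineage sum was lower (106 against 308 TPM), and the ranges overlapped for each of these lists. The oligodendrocyte lineage sum was 5.88 to 611 TPM over VGT3+ cells and 59.1 to 1299 TPM over Sst+ cells, and the astrocyte sum 276 to 3553 and 190 to 2778 TPM. The part of glial RNA in the Qk level was not tested. Hnrnpl, which binds CA-rich RNA, spanned 0.530 to 10.5 TPM over the Pv+ cells and 7.26 to 65.5 TPM in Sst+ cells, a difference in mean log2 of -2.08. Celf6 was listed at 0 in all 5 Pv+ cells and in 2 cells of each other type, where it reached 63.7 TPM (VGT3+) and 97.8 TPM (Sst+). Celf5, of the same family of RNA-binding proteins, was at most 0.479 TPM in VGT3+ cells and reached 17.4 TPM in Sst+ cells. Celf1 and the spliceosome-associated Srrm2 had their highest values in Sst+ cells too, at 57.5 and 44.6 TPM.

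**Figure D4:**
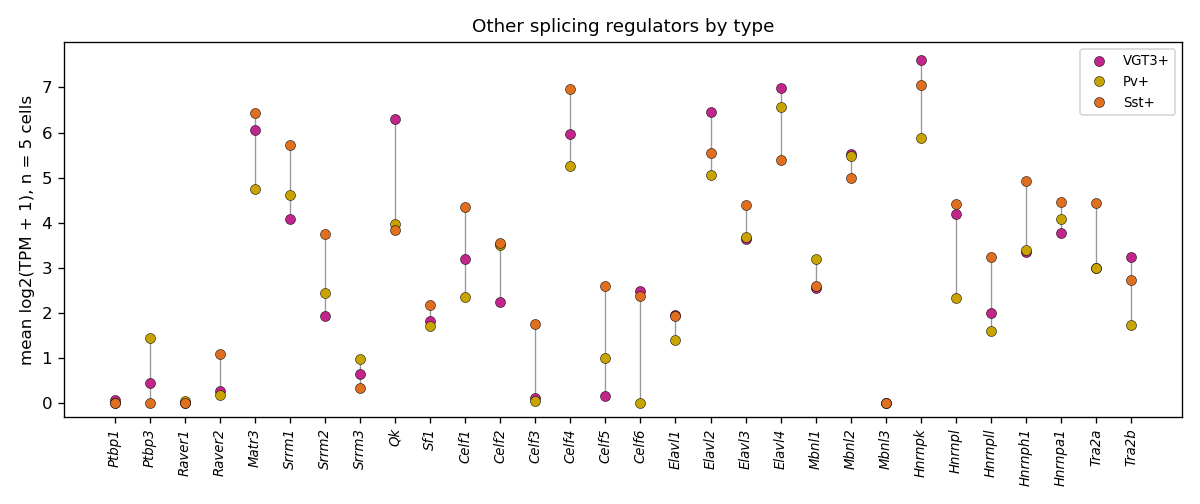
Mean log2(TPM + 1) of 30 other splicing regulators in VGT3+, Pv+ and Sst+ cells (vertical axis, 1 point per type, n = 5 cells; a grey line joins the lowest and the highest type). Pv+ means lie at least 1 below Sst+ means for 13 genes, Qk is highest in VGT3+ cells, and Ptbp1 is at or near 0 in every type.

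Across the 15 cells, the genes with the most similar pattern were sought among 5178 genes averaging 10 TPM or more that were above 0 in at least 8 cells. For Rbfox1 these were Tvp23b (r = 0.91; means of 25.9, 33.5 and 163 TPM in VGT3+, Pv+ and Sst+ cells) and Sox6, a transcription factor of interneurons born in the medial ganglionic eminence (r = 0.87; 1.85, 11.4 and 36.1 TPM). For Ptbp2 they were Gm14597 (r = 0.90) and Cxx1c (r = 0.90), and for Nova2 Nme7 (r = 0.89; 165, 1.06 and 8.25 TPM) and Wdr47 (r = 0.84). Nova1 was closest to Ino80c (r = 0.88) and Polr3a (r = 0.82), Rbfox2 to Dph2 (r = 0.86) and Anks3 (r = 0.80), and Srrm4 to Capzb (r = 0.86) and Emp3 (r = 0.78). Khdrbs3 was closest to Os9 (r = 0.82) and Rere (r = 0.80), Rbfox3 to Yif1a (r = 0.79) and Tmem127 (r = 0.76), and Khdrbs1 to Gm7308 (r = 0.76) and Hsd17b10 (r = 0.75). The cells differ in depth and library prefix, and the highest of 5178 values is high by selection, so these are descriptions with no p.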

How the data were processed

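The sources describe reads split by barcode with bcl2fastq, cleaned with BBTools, mapped by HISAT2 2.1.0 onto GRCm38 and assigned to Ensembl genes by HTSeq (strand setting not given in the sources used here). The deposited values are TPM, made by the authors from counts and gene lengths, and they sum to 1000000 in each cell. The sources state no further scaling of the cells. All 15 columns were used.

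Using pandas 2.3.3 and numpy 2.4.6 under Python 3.11.15, log2(TPM + 1) was averaged over the 5 cells of a type and differences of means were taken for the 12825 genes averaging 1 TPM or more. A difference of 1, or 2-fold, was the call. These steps were tested on simulated data for genes averaging 10 TPM or more. The simulated cells had less spread than most regulators and no loss of transcripts, so the test does not cover values like the 40 at 0. Reads were estimated with exon lengths of GENCODE M21 (also GRCm38), which holds 97.3% of the gene identifiers: 71.8 to 76.2% of values under 50 reads lay within 0.01 of a whole number. Sequences came from the same release.

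Genes named are the 10 regulators, their targets Nrxn2 and Nrxn3, the 6 of the listed other regulators with the largest difference between types plus Ptbp1, Srrm3 and Qk, the 2 genes most similar to each regulator (Pearson r over 15 cells, among genes averaging 10 TPM or more and above 0 in at least 8 cells), and the genes behind the labels. Gm26821, Srrm4os and Tmem119 were named after their values were seen. Members and lists were chosen with earlier results of these data known. Alternatives were library prefix G709 only, leaving out each cell, size factors, rescaling without mitochondrial and the 10 highest genes, a pseudocount of 0.1, medians, other filters and Spearman's correlation.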

Additional observations from a re-analysis of the deposited data

Results flagged for a closer look

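Of 30 sets of 5 cells (10 regulators in 3 types), 7 held a cell whose gap to the nearest other cell, on log2(TPM + 1), was a larger part of the whole range than Dixon's critical value for 5 values. Chance flags about 1 in 20 sets of normally distributed values. That rate does not apply to 3 of the 7 (both of Khdrbs2 and that of Rbfox1), where 4 cells were at 0 and any value above 0 in the fifth is flagged. In 2 of them Khdrbs2 was above 0 in a single cell, VGT3+ cell 3 (0.678 TPM) and Sst+ cell 5 (0.0118 TPM). Rbfox1 was at 51.5 TPM in VGT3+ cell 2 and listed at 0 in the other VGT3+ cells. Ptbp2 was at 0.692 TPM in VGT3+ cell 3, where the other VGT3+ cells held 48.2 to 119 TPM. In Pv+ cell 2, Khdrbs3 was at 30.6 TPM and Rbfox2 at 4.85 TPM, above the other Pv+ cells. Srrm4 was listed at 0 in Pv+ cell 1, below the other Pv+ cells.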

How the results depend on the processing

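Of the 15 differences past 1 log2 unit, 7 stayed past it with each cell left out in turn: the 3 of Rbfox1, both of Srrm4, that of Ptbp2 between Pv+ and Sst+ cells and that of Nova2 between VGT3+ and Pv+ cells. With medians in place of means, Ptbp2 turned from -1.51 to 0.14 between VGT3+ and Sst+ cells, where VGT3+ cell 3 lies far below the rest, and the differences between Pv+ and Sst+ cells of Ptbp2 (-0.87) and Nova1 (-0.05) no longer passed 1. The count of regulators past 1 log2 unit between VGT3+ and Pv+ cells was 4 with all cells, 7 within library prefix G709 (2 VGT3+ cells) and 3 to 7 with each cell left out (7 without VGT3+ cell 3). Between VGT3+ and Sst+ cells it was 4, and 2 within prefix G709 (without Ptbp2, -0.09, and Rbfox2, -0.89). The 3 counts changed by at most 1.5 times under size factors, rescaling, a pseudocount of 0.1 or medians. Of the 18 genes named as most similar to a regulator, 3 were named again with Spearman's correlation and 12 with a minimum mean of 1 TPM. No paired analysis was possible because the cell numbers only name cells, each type counted as 1 sample and no test was made. The 40 values of 0 limit what can be said at this depth.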
